A study of Mus musculus with 28 samples.

Results

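Dorsal skin of P15 mutant mice, 15 days old, was set against dorsal skin of P10 control mice, 10 days old, so that age and genotype both differed. The mutants carried K14-cre and a conditional allele of Gab1 (Gab1fl), and all mice were on a mixed C57/BL6;129Ola background. The 10 arrays were 6 P15 mutants (replicates 1 to 6) and the 4 P10 controls (replicates 1 to 4) hybridised on the same Illumina BeadChips, here called slides 3 and 4, out of 28 arrays in the series. The 6 P15 controls of those slides stood beside them, which let each gene be read against control skin of the older and of the younger age. K14-cre acts in basal keratinocytes of epidermis and hair follicle, so other skin cells keep Gab1. The sources used here do not give the exons that recombination removes. Nothing in the labels states that replicates were different animals, and the spread behind each p-value is therefore that between these samples, which may be technical. The question was how far older mutant skin resembled younger control skin, and what differed from it.

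Gab1 is a docking protein that recruits signalling proteins to activated growth factor receptors and helps switch on Ras and the ERK kinases. Mouse hair follicles grow during the first weeks after birth, in a phase called anagen in which matrix cells divide and their progeny build the keratin-rich hair shaft, and the follicles then pass through regression and rest. Over the same period the dermis deposits collagen, fat fills the deep dermis, follicle melanocytes pigment the hair and the epidermis thins.

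Among the 16 arrays of slides 3 and 4, P15 mutant 5 stood apart. It had 8836 probes detected above background and a median raw signal of 172, against 9789 to 12684 probes and 53.2 to 82.1 on the other 15. Correlations of signals lay between 0.914 and 0.984 among P15 mutants and between 0.964 and 0.984 among P10 controls. The counts, classes, list medians and named genes below were recomputed without this array. Among named genes the calls against P10 controls of C1qa, Sc5d and Tef then ended and Dct passed, and no list median moved beyond the spread between arrays. On both slides P15 mutants lay at positions A to C, P15 controls at D to F and P10 controls at G and H, so group and position cannot be told apart. The number of arrays limits the precision. Krt14, a keratin of basal keratinocytes, was near the top of the signal range on all arrays and averaged 15.05 ± 0.09 in P15 mutants, 15.04 ± 0.07 in P15 controls (SD, n = 6 each) and 14.81 ± 0.13 in P10 controls (SD, n = 4), on the normalised log2 scale used throughout. Means below are given ± SD over the same numbers of arrays.

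The targeted gene was lower in every mutant. Gab1 signals ran from 9.91 to 10.54 (median 10.34) in P15 mutants and from 11.29 to 11.85 (median 11.63) in P15 controls, and were 11.52, 11.60, 11.42 and 11.01 in P10 controls 1 to 4. No mutant overlapped a control. Relative to P10 controls Gab1 was 2.16-fold lower in P15 mutants (log2 difference -1.11, SE 0.12, limma adjusted p = 3.45e-07). Between P15 and P10 controls the log2 difference of 0.22 did not pass (adjusted p = 0.217). In whole skin, fewer cells of a type and less RNA per cell cannot be told apart, here or below.

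Taken over all 9045 genes, P15 mutant skin lay slightly nearer to control skin of its own age than to the younger controls. Distance between arrays was measured within a slide as the root mean square difference of log2 signals. P15 mutants 1 to 6 lay at 0.575, 0.576, 0.565, 0.631, 0.924 and 0.663 from the P10 controls. Their distances to the P15 controls were 0.587, 0.555, 0.523, 0.540, 0.844 and 0.548. Mutant 1 was the 1 array of 6 that lay closer to the P10 controls, by a small margin. P15 controls lay on average 0.581 from P10 controls, with arrays between 0.521 and 0.622. Arrays of 1 control group lay closer together, at 0.395 among P15 controls, and at 0.369 and 0.398 among P10 controls of slides 3 and 4. P15 mutants lay on average 0.656 from the P10 controls and 0.599 from the P15 controls, and without mutant 5, the farthest array, 0.602 and 0.551. Of the 6 mutants, 3 lay farther from the P10 controls than 0.581 and 2 lay farther from the P15 controls than that. These distances share arrays and carry no test.

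**Figure D1:**
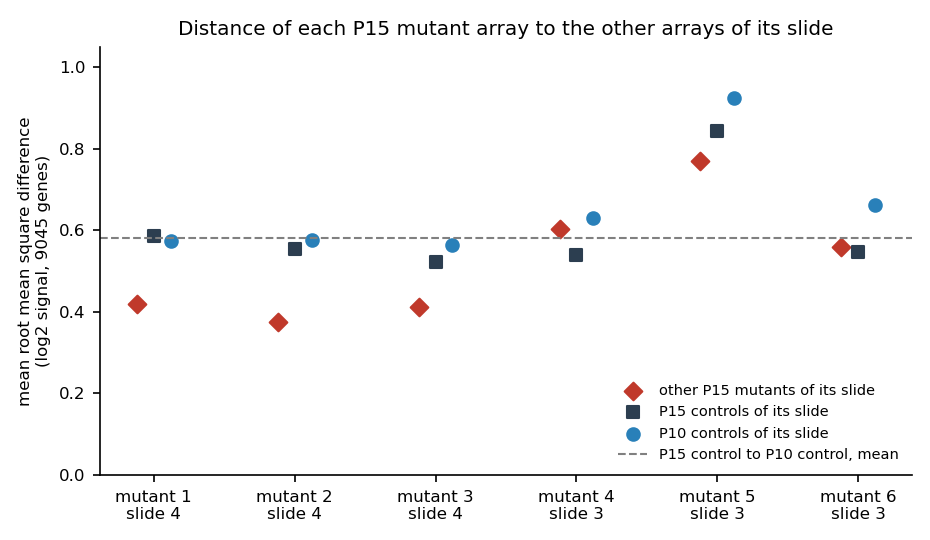
Mean root mean square difference in log2 signal (y axis, 9045 genes) of each P15 mutant array (x axis) to the other P15 mutants, the P15 controls and the P10 controls of its slide; the dashed line is the mean distance of P15 controls to P10 controls, 0.581. For 5 of the 6 mutants the P10 control point lies above the P15 control point, and mutant 5 lies highest for all groups.

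Gene by gene, 2260 of the 9045 genes tested passed between P15 mutants and P10 controls (25%, limma adjusted p below 0.05), 1154 of them higher (12.8%) and 1106 lower (12.2%) in P15 mutants. Of 328 that differed at least 2-fold (3.63%), 126 were higher (1.39%) and 202 lower (2.23%). On each slide all P15 mutants lay beyond all P10 controls, the same way, for 1390 genes (15.4%), of which 1243 also passed (13.7%). Under median scaling instead of quantile normalisation, the median of all genes moved from 0.02 to -0.14 and the passing genes split into 321 higher and 1547 lower, or 17.2% against 51.1% higher. Small positive differences below are therefore relative to the quantile scale. Within slide 3 alone 788 genes passed and within slide 4 alone 513. Without P15 mutant 5, 2537 genes passed, and without P10 control 3, 1569. In the same fit 2012 genes passed between P15 and P10 controls (22.2%), 1052 higher (11.6%) and 960 lower (10.6%) in P15 controls. Between P15 mutants and P15 controls 1810 passed (20.0%), 876 higher (9.68%) and 934 lower (10.3%) in P15 mutants. These 3 comparisons share arrays, so their values are set side by side below and not counted as separate evidence.

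Each gene was also placed by its level. A gene was taken to be at the P10 control level where P15 controls had moved away from P10 controls, P15 mutants had passed against P15 controls in the direction of the younger level, and the 95% interval of P15 mutant minus P10 control lay within 1.5-fold. By the mirrored rule a gene was at the P15 control level, and a gene lay beyond both controls where P15 mutants passed against each in 1 direction. Of the 2012 genes that differed with age in control skin, 387 were at the P10 control level (19.2%) and 722 at the P15 control level (35.9%), while 903 met neither rule. The shares were alike for genes higher and lower with age, at 20.2% and 18.2% for the P10 control level and 35.9% and 35.8% for the P15 control level. Beyond both controls lay 682 genes (7.54% of all tested), 307 higher (3.39%) and 375 lower (4.15%) in P15 mutants. Of the 682, 106 had also differed with age, and 4 of these met the rule for the P15 control level as well. Of all genes tested the P10 and P15 control level classes made up 4.28% and 7.98%. Without mutant 5 the 3 classes held 476, 952 and 701 genes.

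Since the same P10 controls define age genes and the level they are compared with, age genes were also chosen on 1 slide and read on the other. Of genes chosen on slide 3, the 145 that were higher in P15 controls had on slide 4 a median log2 difference from P10 controls of 0.20 in P15 mutants and 0.42 in P15 controls. The 121 lower ones stood at -0.57 in P15 mutants and -1.11 in P15 controls. Of genes chosen on slide 4 and read on slide 3, the 295 higher ones stood at 0.17 in P15 mutants and 0.54 in P15 controls, and the 381 lower ones at -0.39 in P15 mutants and -0.61 in P15 controls. In each of the 4 sets the mutant median lay between the 2 control ages.

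Among the leading genes above both controls were genes of the cornified envelope, of antimicrobial defence and of the acute phase. Of 31 genes on a list of epidermal stress and antimicrobial genes, 11 were not tested, and of the other 20, 14 rose and 1 fell relative to P10 controls (median log2 difference 1.90, against 0.02 for all genes tested). Sprr2d, Defb4, Defb14 and Cxcl1 met the detection minimum of 6 of the 28 arrays only because mutant arrays counted towards it, so their differences are a description. Without these 4, 10 of 16 rose and 1 fell (median 1.19). Between P15 and P10 controls 10 rose and 2 fell (median 0.57). Beyond both controls lay 10 of the 20, among them Sprr2d, Defb4, Defb14 and Cxcl1. The mean signal of all 20 was 8.99 to 10.00 in P15 mutants, 7.97 to 8.26 in P15 controls and 7.48 to 7.93 in P10 controls. The groups did not overlap, but this mean includes those 4 genes and was not recomputed without them.

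Sprr2d, a proline-rich component of the cornified cell envelope, had the largest rise of all genes tested. Its signals ran from 8.02 to 11.57 (median 9.40) in P15 mutants and from 4.58 to 6.37 (median 5.19) in P15 controls, and were 4.70, 5.33, 4.65 and 4.83 in P10 controls 1 to 4. It was detected on 6 of 6 P15 mutants, 1 of 6 P15 controls and 0 of 4 P10 controls. In P15 mutants it was at least 12.6-fold higher than in P10 controls. Folds given as "at least" are bounds for probes that no array of 1 group detected. For the bound each of its arrays took the lowest signal among detected probes, or its own where that was higher. Defb4, a beta-defensin, was detected on 6 of 6 P15 mutants and on none of the 10 control arrays. Its signals ran from 7.90 to 9.83 (median 8.58) in P15 mutants and from 4.74 to 5.69 (median 5.11) in P15 controls, and were 4.81, 4.86, 4.84 and 4.60 in P10 controls. It was at least 7.17-fold higher than in P10 controls. A second beta-defensin gene, Defb14, was detected on 5 of 6 P15 mutants and on no control, and was at least 3.88-fold higher.

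Krt42, a type I keratin, had signals from 10.20 to 11.11 (median 10.70) in P15 mutants and from 7.00 to 7.28 (median 7.12) in P15 controls, and 6.45, 6.69, 6.93 and 7.70 in P10 controls. It was detected on all 16 arrays, and the lowest mutant lay far above the highest control. The rise over P10 controls was 13.7-fold (log2 difference 3.78, SE 0.19, adjusted p = 2.83e-13), while P15 and P10 controls differed by 0.18 (adjusted p = 0.541). Lcn2, an iron-sequestering antimicrobial protein, ranged from 9.78 to 11.02 (median 10.04) in P15 mutants and from 7.08 to 7.66 (median 7.13) in P15 controls, with 6.45, 6.66, 6.92 and 6.58 in P10 controls. It was 12.1-fold higher than in P10 controls (SE 0.22, adjusted p = 1.07e-11), and P15 controls were also above P10 controls, by 0.62 (adjusted p = 0.0438). Chil1, a chitinase-like protein, averaged 11.45 ± 0.55 in P15 mutants, 8.62 ± 0.34 in P15 controls and 8.70 ± 0.39 in P10 controls, a rise of 6.72-fold over P10 controls (adjusted p = 4.41e-09).

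Other rises joined a smaller change with age. Saa3, an acute phase apolipoprotein, averaged 8.39 ± 0.52 in P15 mutants, 7.07 ± 0.14 in P15 controls and 5.52 ± 0.47 in P10 controls, of which 1 of 4 detected it. The serine protease gene Klk6 averaged 12.10 ± 0.34 in P15 mutants, 10.18 ± 0.20 in P15 controls and 9.49 ± 0.16 in P10 controls. For both genes P15 controls had passed against P10 controls and P15 mutants had gone further in the same direction. The envelope gene Sprr2f (log2 difference 3.35 from P10 controls, of which 2 of 4 detected it), the protease inhibitor-like gene Wfdc18 (2.88) and the C-type lectin-like gene Clec2e (at least 3.61-fold, detected on 5 of 6 P15 mutants) also passed against both controls. Among controls Clec2e was detected on 4 P15 arrays and no P10 array. It too met the detection minimum only because mutant arrays counted, so its difference is a description. The chemokine gene Cxcl1, which attracts neutrophils, was detected on 6 of 6 P15 mutants and on no control. It was at least 3.09-fold higher than in P10 controls, again a description. Of 11 neutrophil markers, Mmp9 was the 1 that could be tested. Of the others, Elane was detected on 1 P10 control, Ly6g had no probe, and 8 were detected on none of the 10 arrays compared. Apart from Mmp9 (0.57, adjusted p = 0.0443), whose call ended under 17 alternatives, the calls of these rises held under every alternative that was run. For genes that met the detection minimum only through mutant arrays, this is no support. Probes of near-identical Sprr2 genes may take up each other's signal, which was not tested.

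The promoters of the leading rises are shown because these genes moved together, and they give the sequence context for any factor a reader may wish to follow. Each is the 250 bases before the start of the gene, 5′ to 3′ on the gene's strand, from RefSeq (GRCm38.p6), for the 4 of 6 genes looked up that had an entry (not Defb4 or Defb14). Capitals mark matches, on either strand, to the core promoter element TATAAA, the AP-1 motif TGANTCA, the C/EBP motif TTGCNNAA or an NF-kappaB motif that reads GGGA, then any 4 bases, then a pair of Cs. No matches overlapped.
Sprr2d, chr3:92338890-92339139, plus strand: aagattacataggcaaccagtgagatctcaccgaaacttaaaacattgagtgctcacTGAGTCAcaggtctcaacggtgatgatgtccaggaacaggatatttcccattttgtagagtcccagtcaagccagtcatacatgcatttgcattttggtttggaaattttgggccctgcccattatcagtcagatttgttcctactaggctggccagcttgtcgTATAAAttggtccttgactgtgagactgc
Krt42, chr11:100269952-100270201, minus strand: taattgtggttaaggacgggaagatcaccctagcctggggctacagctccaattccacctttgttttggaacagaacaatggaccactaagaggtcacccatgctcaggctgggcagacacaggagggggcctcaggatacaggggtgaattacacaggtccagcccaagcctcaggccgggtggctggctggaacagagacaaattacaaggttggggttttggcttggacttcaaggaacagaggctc
Lcn2, chr2:32387740-32387989, minus strand: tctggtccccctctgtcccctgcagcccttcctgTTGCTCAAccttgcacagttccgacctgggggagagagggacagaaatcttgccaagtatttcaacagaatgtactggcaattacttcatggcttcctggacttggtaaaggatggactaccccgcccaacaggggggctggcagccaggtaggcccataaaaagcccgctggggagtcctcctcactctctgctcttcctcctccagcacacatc
Chil1, chr1:134181906-134182155, plus strand: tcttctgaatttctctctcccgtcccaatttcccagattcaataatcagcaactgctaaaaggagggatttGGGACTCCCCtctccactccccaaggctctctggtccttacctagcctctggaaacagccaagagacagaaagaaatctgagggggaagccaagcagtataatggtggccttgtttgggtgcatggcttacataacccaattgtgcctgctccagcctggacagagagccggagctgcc
Sprr2d held 1 TATAAA and 1 TGANTCA, Lcn2 held 1 TTGCNNAA, Chil1 held 1 NF-kappaB motif, and the Krt42 window held no match to the 4 motifs. Of 32851 promoter windows of the same length, 12.4% held TATAAA, 6.75% TGANTCA, 9.56% TTGCNNAA and 17.6% the NF-kappaB motif. A match describes the letters and not a bound site.

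**Figure D2:**
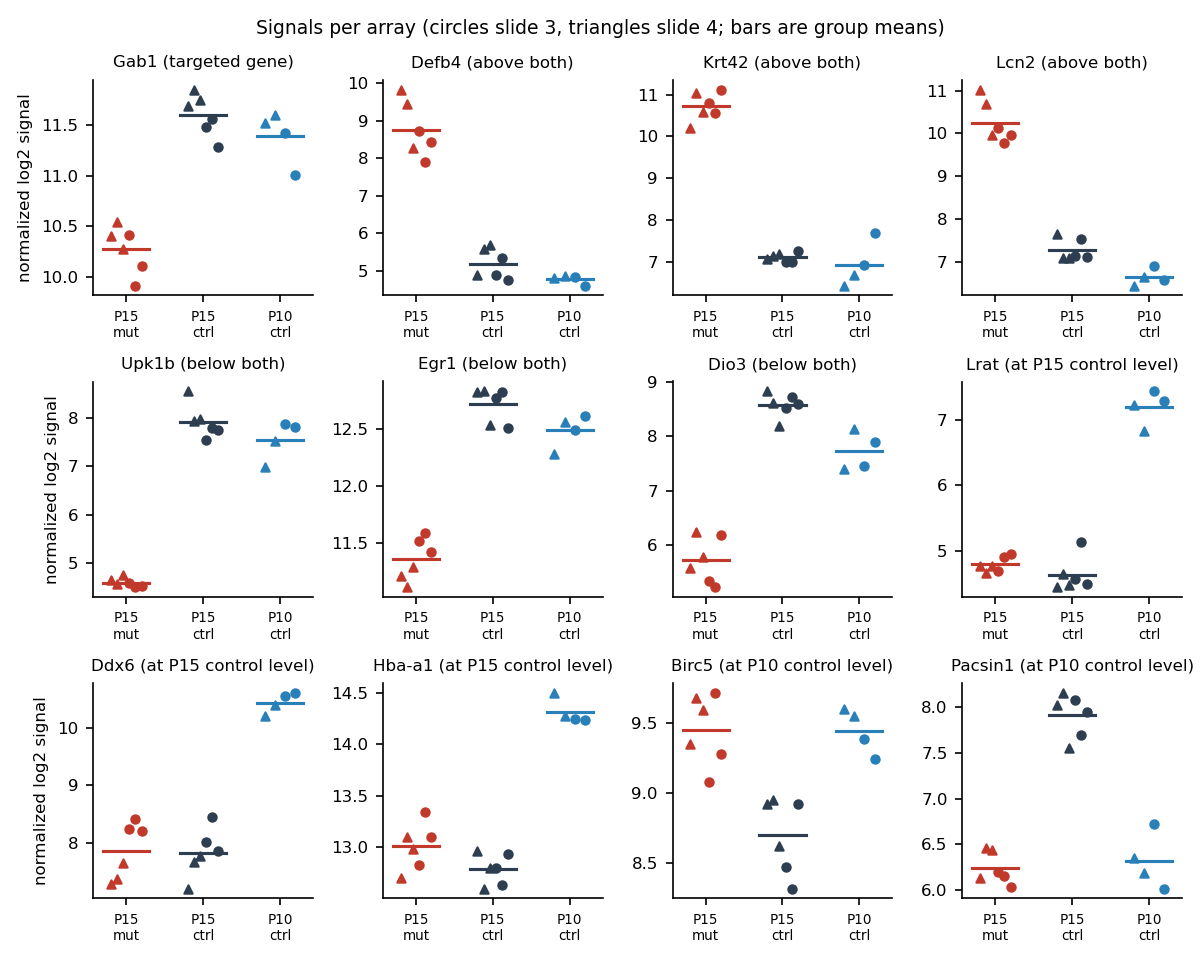
Normalised log2 signal (y axes) of 12 genes in 6 P15 mutant, 6 P15 control and 4 P10 control arrays, with circles for slide 3, triangles for slide 4 and bars for group means. Defb4, Krt42 and Lcn2 lie above both controls in all 6 mutants, Gab1, Upk1b, Egr1 and Dio3 below both, and the last 5 genes near the P15 or the P10 controls.

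Upk1b, Chrna4, Klk15, Spink6 and Dio3 were among the genes below both controls. The uroplakin gene Upk1b, known from the lining of the bladder, was detected on 0 of 6 P15 mutants, 6 of 6 P15 controls and 4 of 4 P10 controls. Its signals ran from 4.50 to 4.75 (median 4.57) in P15 mutants and from 7.55 to 8.55 (median 7.87) in P15 controls, and were 6.99, 7.53, 7.88 and 7.81 in P10 controls. It was at least 2.44-fold lower in P15 mutants than in P10 controls (adjusted p = 1.07e-11). The same held for the nicotinic receptor subunit Chrna4 (at least 3.10-fold lower), the kallikrein Klk15 (at least 2.01-fold) and the protease inhibitor Spink6 (at least 1.82-fold), each detected on no mutant and on every P15 and P10 control of these slides. Spink6 varied widely among P10 controls, at 6.04, 6.71, 7.33 and 8.43, all above the mutants' 4.64 to 4.99.

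Dio3, which inactivates thyroid hormone, ran against its change with age. Its signals ran from 5.22 to 6.24 (median 5.67) in P15 mutants, where 2 of 6 arrays detected it, and from 8.19 to 8.83 (median 8.60) in P15 controls, and were 7.40, 8.14, 7.45 and 7.90 in P10 controls. P15 mutants lay 4.01-fold below P10 controls (SE 0.19 on the log2 scale, adjusted p = 2.35e-08), and P15 controls lay 0.86 above them (adjusted p = 0.00208). Slc4a1, an anion exchanger best known from red cells, did likewise, with means of 10.41 ± 0.26 in P15 mutants, 11.90 ± 0.15 in P15 controls and 11.16 ± 0.28 in P10 controls. Its call against P10 controls ended on slide 4 alone.

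Of 11 ERK targets and feedback inhibitors, 5 fell and 1 rose between P15 mutants and P10 controls (median -0.39), and 1 fell between P15 and P10 controls (median -0.13). Egr1, an immediate early transcription factor, had signals from 11.12 to 11.59 (median 11.36) in P15 mutants and from 12.51 to 12.82 (median 12.79) in P15 controls, and 12.28, 12.56, 12.49 and 12.61 in P10 controls. All 6 mutants lay below all 10 controls (log2 difference from P10 controls -1.12, SE 0.13, adjusted p = 9.35e-07). The ERK phosphatase genes Dusp6 (-0.91, adjusted p = 1.61e-05) and Dusp4 (-1.13, adjusted p = 5.90e-05, detected on 3 of 6 mutants) also lay below both controls. The calls of Dusp6 and Dusp4 ended on slide 3 alone and on slide 4 alone, in that order. Etv4, an ETS factor, fell to the P15 control level (-0.73 in P15 mutants and -0.71 in P15 controls, each relative to P10 controls), and the 1 gene that rose was Fos (0.52).

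A large block of genes had made the change from the P10 to the P15 level in mutant skin as in control skin. Of 22 dermal extracellular matrix genes 19 passed against P10 controls, all lower (median -0.85), and in P15 controls 18 passed, all lower (median -0.87). At the P15 control level were 11 of the 22, and 3 lay below both controls. The mean signal of the list was 9.40 to 10.07 in P15 mutants, 9.60 to 9.83 in P15 controls and 10.51 to 10.61 in P10 controls. Thbs2, a matricellular protein, averaged 10.10 ± 0.20 in P15 mutants, 10.30 ± 0.14 in P15 controls and 11.13 ± 0.21 in P10 controls. The collagen chain Col1a1 averaged 10.55 ± 0.56 in P15 mutants, 11.19 ± 0.26 in P15 controls and 12.26 ± 0.35 in P10 controls, and was 3.26-fold below P10 controls (adjusted p = 2.21e-06). The microfibril gene Mfap4 (3.55-fold) was likewise below both. On slides 3 and 4 alone the list median of P15 mutants against P10 controls was -0.62 and -0.98.

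The 6 genes with the largest age change among those at the P15 control level were Ddx6, Lrat, Thsd4, Kitl, Nsd1 and Afap1, all high at P10. Only Ddx6 was detected on P15 arrays. For the others both P15 groups lay at background, which set their closeness, so it does not show equal levels. Lrat, which esterifies retinol, had signals from 4.66 to 4.95 (median 4.76) in P15 mutants and from 4.44 to 5.12 (median 4.52) in P15 controls, and 7.23, 6.84, 7.44 and 7.29 in P10 controls. No P15 array and all 4 P10 controls detected it. It was at least 1.91-fold lower in either P15 group than in P10 controls. Ddx6, an RNA helicase of processing bodies, was detected on all 16 arrays. Its signals ran from 7.29 to 8.42 (median 7.93) in P15 mutants and from 7.20 to 8.44 (median 7.81) in P15 controls, and were 10.21, 10.40, 10.56 and 10.62 in P10 controls. P15 mutants were 5.99-fold below P10 controls (SE 0.18, adjusted p = 8.52e-11), and their difference from P15 controls was 0.04 (95% interval -0.29 to 0.37).

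Kitl, the ligand of the Kit receptor on melanocytes and mast cells, Thsd4, a matrix protein, and Nsd1, a histone methyltransferase, were detected on no P15 array and on 4 of 4 P10 controls. They were at least 1.56-fold, 2.50-fold and 2.02-fold lower in P15 mutants than in P10 controls. Apart from P10 controls, Kitl and Nsd1 were each detected on 4 arrays, all P10 mutants. Both met the detection minimum only because P10 controls counted towards it, so their differences are a description. The 6 P10 controls on slides 1 and 2, which the contrast did not use and which were normalised together with these arrays, had means of 7.02 for Lrat, 6.53 for Kitl, 7.53 for Thsd4, 6.78 for Nsd1 and 10.48 for Ddx6. These lie near the P10 controls of slides 3 and 4, although slides differ between the 2 sets. Not all genes named below did so. The same 6 arrays averaged 7.40 for Bub1b, 7.07 for C1qa and 7.00 for Adgre1. P15 mutants averaged 7.11, 6.97 and 7.17 for these genes, and P10 controls of slides 3 and 4 5.97, 6.17 and 6.37. Thsd4 was at the P15 control level under 17 of 30 settings and the other 5 genes in all but 1 or fewer. The transcriptional repressor gene Zbtb7a, whose fall was the second largest among all genes tested, also changed with age in controls, with means of 7.35 ± 0.80 in P15 mutants, 7.86 ± 0.31 in P15 controls and 10.46 ± 0.31 in P10 controls. P15 mutant 5 lay lowest, at 5.78, and without it the log2 difference from P10 controls was -2.77, against -3.11 with it.

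Of 10 red cell genes on a list, 6 were not tested, and the other 4 all fell relative to P10 controls, 3 of them to the P15 control level. Slc4a1, described above, was the exception and lay below both controls. The mean signal of the 4 genes was 9.50 to 9.67 in P15 mutants, 9.80 to 10.08 in P15 controls and 10.35 to 10.77 in P10 controls, without overlap. Hba-a1, an alpha-globin, ran from 12.70 to 13.34 (median 13.04) in P15 mutants and from 12.60 to 12.96 (median 12.80) in P15 controls, and was 14.50, 14.27, 14.25 and 14.24 in P10 controls. Hbb-bt, a beta-globin, and Alas2, which starts erythroid haem synthesis, were also at the P15 control level (log2 differences from P10 controls of -0.89 and -0.88). Both calls ended on slide 4 alone.

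Fewer genes met the rule for the P10 control level, which rests on fewer control arrays, and genes of dividing cells were among them. Of 17 cell proliferation genes, 12 passed between P15 mutants and P15 controls, all higher (median 0.57), and 10 passed between P15 and P10 controls, all lower (median -0.49). Against P10 controls 3 rose and 1 fell in P15 mutants, and the median of 0.09 turned to -0.07 under median scaling. At the P10 control level were 6 of the 17, at the P15 control level 0, and 3 lay above both controls. The mean signal of the list was 8.78 to 8.98 in P15 mutants, 7.93 to 8.41 in P15 controls and 8.58 to 8.92 in P10 controls, so that mutants overlapped the younger but not the older controls.

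Birc5, the mitotic regulator survivin, had signals from 9.08 to 9.72 (median 9.47) in P15 mutants and from 8.32 to 8.95 (median 8.77) in P15 controls, and 9.60, 9.55, 9.39 and 9.25 in P10 controls. Its log2 difference from P10 controls was 0.00 (95% interval -0.26 to 0.26), and from P15 controls 0.75 (adjusted p = 2.97e-05). Cdc20, an activator of the anaphase-promoting complex, averaged 9.91 ± 0.23 in P15 mutants, 9.12 ± 0.17 in P15 controls and 9.76 ± 0.14 in P10 controls. Its other probes differed from P10 controls by -0.07, -0.46 and 0.08. Mcm5, a subunit of the replicative helicase, averaged 10.80 ± 0.42 in P15 mutants, 10.14 ± 0.23 in P15 controls and 10.80 ± 0.16 in P10 controls. Its lowest mutant was array 5 at 9.97. Another helicase subunit, Mcm2, lay above both controls (0.39 over P10 controls, adjusted p = 0.0290), as did the nucleotide reductase gene Rrm2 (0.62) and the mitotic checkpoint gene Bub1b (1.14). A second Rrm2 probe differed from P10 controls by 0.06. The call of Mcm2 ended under 13 alternatives, among them median scaling and leaving out any of P10 controls 1 to 3. Calls of Rrm2 and Bub1b both ended with only the 10 arrays compared and on either slide alone, and that of Rrm2 also without P10 control 4 and with median scaling. The exception on the list was Mcm7, which fell (-0.85) with a similar fall in P15 controls (-1.20). Birc5, Cdc20 and Mcm5 were named after their values were seen.

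The 6 genes with the largest age change in this class were Arc, Pmf1, Pacsin1, Angptl7, Slc26a4 and Ada. Pacsin1, an endocytic adaptor, ran from 6.03 to 6.45 (median 6.18) in P15 mutants and from 7.55 to 8.15 (median 7.98) in P15 controls, and was 6.35, 6.18, 6.72 and 6.02 in P10 controls. It was detected on 4 of 6, 6 of 6 and 3 of 4 arrays of those groups. Its difference from P10 controls was -0.08 (95% interval -0.46 to 0.30) and from P15 controls -1.67 (SE 0.17, adjusted p = 5.29e-08). Pmf1, a kinetochore component, went the other way, with means of 6.74 ± 0.29 in P15 mutants, 5.31 ± 0.36 in P15 controls and 6.88 ± 0.32 in P10 controls. Arc, a synaptic gene induced by activity, was detected on 0 of 6 P15 mutants, 6 of 6 P15 controls and 1 of 4 P10 controls. Angptl7, a secreted angiopoietin-like protein, had a difference of 0.00 from P10 controls and -1.63 from P15 controls, and was detected on 3 of 6 mutants and 2 of 4 P10 controls. Slc26a4 was detected on 2 of 6 mutants and 2 of 4 P10 controls, and Ada on 2 of 6 and 1 of 4. For Arc, Angptl7, Slc26a4 and Ada many signals of both groups lay at background, so their closeness does not show equal levels. Membership of the class varied with the processing: Pacsin1 kept it under 26 of 30 settings, Pmf1 under 22, Arc under 18 of 29, Angptl7 and Slc26a4 under 18 of 30 and Ada under 17 of 29.

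**Figure D3:**
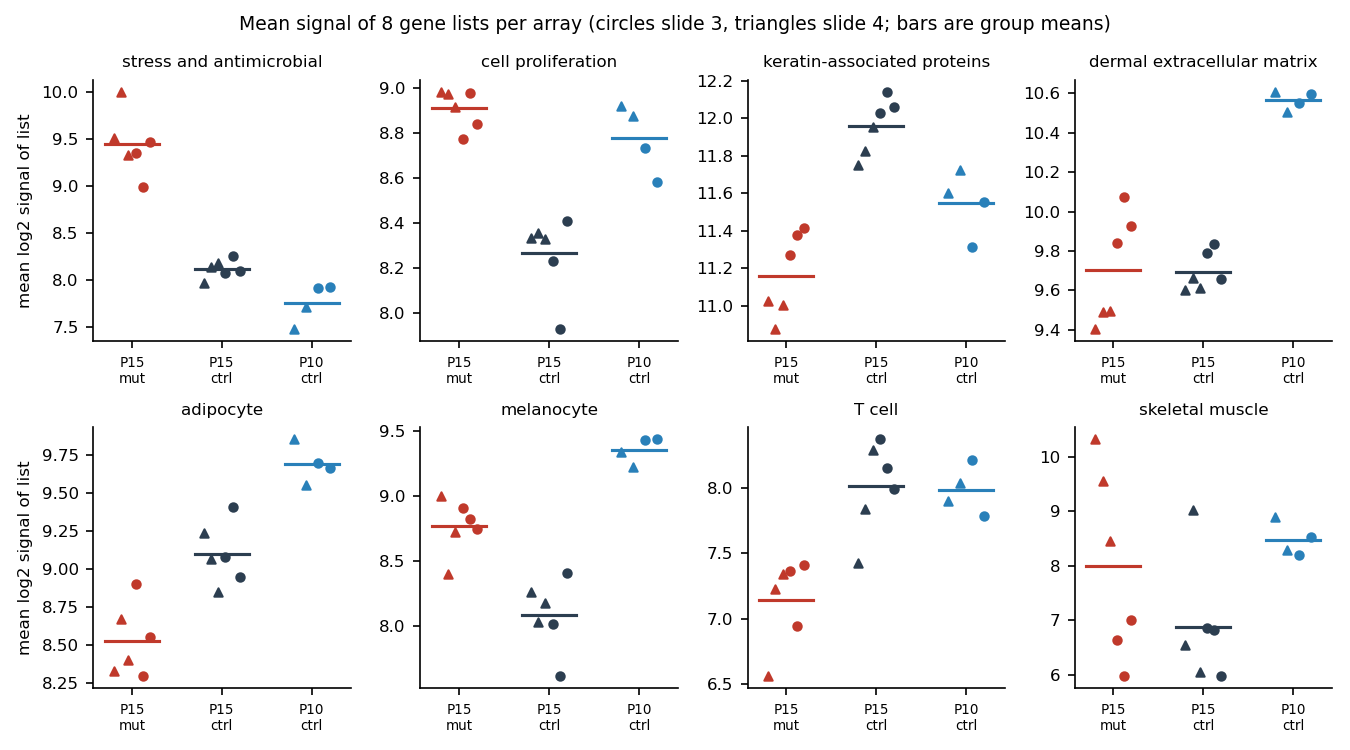
Mean log2 signal (y axes) of 8 gene lists on each P15 mutant, P15 control and P10 control array, with circles for slide 3, triangles for slide 4 and bars for group means. Mutants lie above both controls for the stress list, near P10 controls for proliferation, near P15 controls for dermal matrix and between the ages for melanocyte genes, and split by slide for skeletal muscle. The stress list includes 4 genes that met the detection minimum only through mutant arrays.

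Pigment cell genes lay between the ages. Of 12 melanocyte genes 5 fell between P15 mutants and P10 controls (median -0.45), and 10 fell between P15 and P10 controls (median -1.35). Against P15 controls 9 rose and 1 fell in P15 mutants (median 0.83). The mean signal was 8.40 to 9.00 in P15 mutants, 7.61 to 8.40 in P15 controls and 9.22 to 9.44 in P10 controls. Tyr, the rate-limiting enzyme of melanin synthesis, averaged 6.05 ± 0.46 in P15 mutants, 5.30 ± 0.41 in P15 controls and 6.91 ± 0.33 in P10 controls, and was detected on 3 of 6, 0 of 6 and 4 of 4 arrays. Its difference from P10 controls was -0.86 (adjusted p = 0.00488) and the call ended on either slide alone. Dct, a later enzyme of the pathway named after its values were seen, differed from P10 controls by -0.43 (adjusted p = 0.0565), which passed without P15 mutant 1 or 5, and from P15 controls by 1.11 (adjusted p = 5.39e-06). Mitf, the regulator of melanocyte identity, was lower than P10 controls by 0.82 and was detected on 1 of 6 mutants, 3 of 6 P15 controls and 2 of 4 P10 controls. Its call ended under 10 alternatives, among them no slide term and leaving out P10 control 2 or 3.

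Hair shaft genes were lower than in controls of the same age. Of 28 keratin-associated protein genes, which crosslink keratin filaments in the shaft, 20 passed between P15 mutants and P15 controls, all lower (median -0.66). Between P15 mutants and P10 controls 2 rose and 8 fell (median -0.33), and between P15 and P10 controls 13 rose and 3 fell (median 0.44). Their mean signal was 10.88 to 11.42 in P15 mutants, 11.75 to 12.14 in P15 controls and 11.32 to 11.73 in P10 controls. The 2 slides differed here, with a median against P10 controls of 0.02 on slide 3 and -0.54 on slide 4. Krtap31-2 had the largest fall of the list, with signals from 9.04 to 10.51 (median 9.84) in P15 mutants, 11.48 to 12.33 (median 11.87) in P15 controls, and 12.67, 12.58, 12.83 and 13.23 in P10 controls. All mutants lay below all controls (8.08-fold below P10 controls, SE 0.19, adjusted p = 1.70e-11). Its neighbour in name, Krtap31-1, was 2.79-fold lower (adjusted p = 3.44e-07). Signals of close members of this family may be shared, which was not tested.

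In other compartments of the follicle, few hair shaft keratins or inner root sheath genes passed against P10 controls, while most outer root sheath genes rose. Of 10 hair shaft keratins 2 passed against P10 controls, Krt87 (-0.97, adjusted p = 0.000119) and Krt33a (-0.32, adjusted p = 0.0134), and both fell. This share is below the 25% of all genes tested that passed. The Krt33a call ended without P10 control 3 and in 7 other settings. Against P15 controls 6 of the 10 keratins passed, all lower (median -0.29). Of 8 inner root sheath genes 1 passed, Krt26 (0.44, adjusted p = 0.0188), a call that ended with median scaling and without P10 control 1 or 4. Against P15 controls 4 of the 8 passed, all lower (median -0.38). Of 10 genes of the outer root sheath and its companion layer, 7 rose and 2 fell against P10 controls (median 0.46). Besides Krt42 the rises included Krt6b (1.63, adjusted p = 7.09e-06) and Krt16 (1.49, adjusted p = 9.65e-07), keratins of the companion layer and of stressed epidermis, which also rose in P15 controls (0.91 and 1.10). Both genes are also on the stress list. The 2 that fell were Barx2 and Krt75. Against P15 controls 2 of the 10 rose and 2 fell (median 0.01). The mean signal of the 10 was 11.10 to 11.32 in P15 mutants, 10.75 to 10.96 in P15 controls and 10.26 to 10.60 in P10 controls, without overlap.

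Of 11 bulge stem cell genes 5 fell against P10 controls (median -0.41), against a median of -0.10 in P15 controls. Fst, an activin inhibitor, averaged 7.50 ± 0.25 in P15 mutants, 8.66 ± 0.45 in P15 controls and 8.64 ± 0.24 in P10 controls, a fall of 1.14 on the log2 scale (SE 0.17, adjusted p = 3.45e-05). Its call and that of the transcription factor Nfatc1 (-0.63) ended on slide 4 alone. Krt15, a keratin of bulge cells, fell by 0.79 (adjusted p = 0.00238) and Tcf7l1 by 0.97 (adjusted p = 0.000855), and both calls ended on either slide alone and with only the 10 arrays compared. Of 10 dermal papilla genes 5 fell (median -0.46), and 6 fell between P15 and P10 controls (median -0.77). Trps1 had reached the P15 control level (-1.11), while Sostdc1 (-0.70), a BMP and Wnt inhibitor, lay below both controls, a call that ended on either slide alone.

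Wnt targets and inhibitors gave 2 higher and 2 lower genes of 12 against P10 controls (median 0.10, and -0.07 under median scaling), where P15 controls had 4 lower (median -0.35). Against P15 controls 7 of the 12 passed in P15 mutants, all higher (median 0.47). The mean signal of the list was 8.28 to 8.55 in P15 mutants, 7.68 to 8.10 in P15 controls and 8.32 to 8.35 in P10 controls. Sp5 met the detection minimum only through P10 controls, and without it 2 of 11 rose and 1 fell against them (median 0.15). Wnt10b, a ligand of the hair placode and matrix, was 1.11 above P10 controls (adjusted p = 0.00245) and 1.20 above P15 controls. It was detected on 6 of 6 mutants, 1 of 6 P15 controls and 2 of 4 P10 controls, and the call ended on slide 4 alone and with only the 10 arrays compared. Ccnd1, a cell cycle cyclin, was 0.65 below P10 controls and 0.42 above P15 controls. Of 8 catagen-linked signals 1 rose, the nuclear receptor corepressor Hr (0.80, at the P15 control level), and 1 fell, the neurotrophin receptor Ngfr (-0.75, below both). Together these are a share equal to that of all genes tested (25%). Of 4 hedgehog genes 0 passed limma's test against P10 controls, and 1 had an unadjusted p below 0.05. Of 12 hair matrix regulators 3 rose, namely Wnt10b, Hoxc13 (0.47) and Ovol1 (0.48), the same share as the 25% of all genes tested that passed. The calls of Hoxc13 and Ovol1 ended with median scaling, and that of Hoxc13 without P10 control 1.

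Among epidermal genes, 9 of 26 differentiation genes rose and 1 fell relative to P10 controls (median 0.30), with 8 rising and 1 falling in P15 controls (median 0.30). Lce1g met the detection minimum only through mutant arrays, and without it 8 of 25 rose and 1 fell against P10 controls (median 0.28). Rptn, an epidermal matrix protein (1.25, adjusted p = 0.000458), and the late envelope gene Lce1f (1.09, adjusted p = 0.000407) lay above both controls. P15 mutant 1 lay lowest of the mutants for both. Their calls ended on slide 4 alone, and that of Lce1f also on slide 3 alone. Of 10 kallikreins and Spink inhibitors 4 rose and 2 fell (median 0.32), the 2 being Klk15 and Spink6. Spink14 met the detection minimum only through mutant arrays, and without it 3 of 9 rose and 2 fell (median 0.24).

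**Figure D4:**
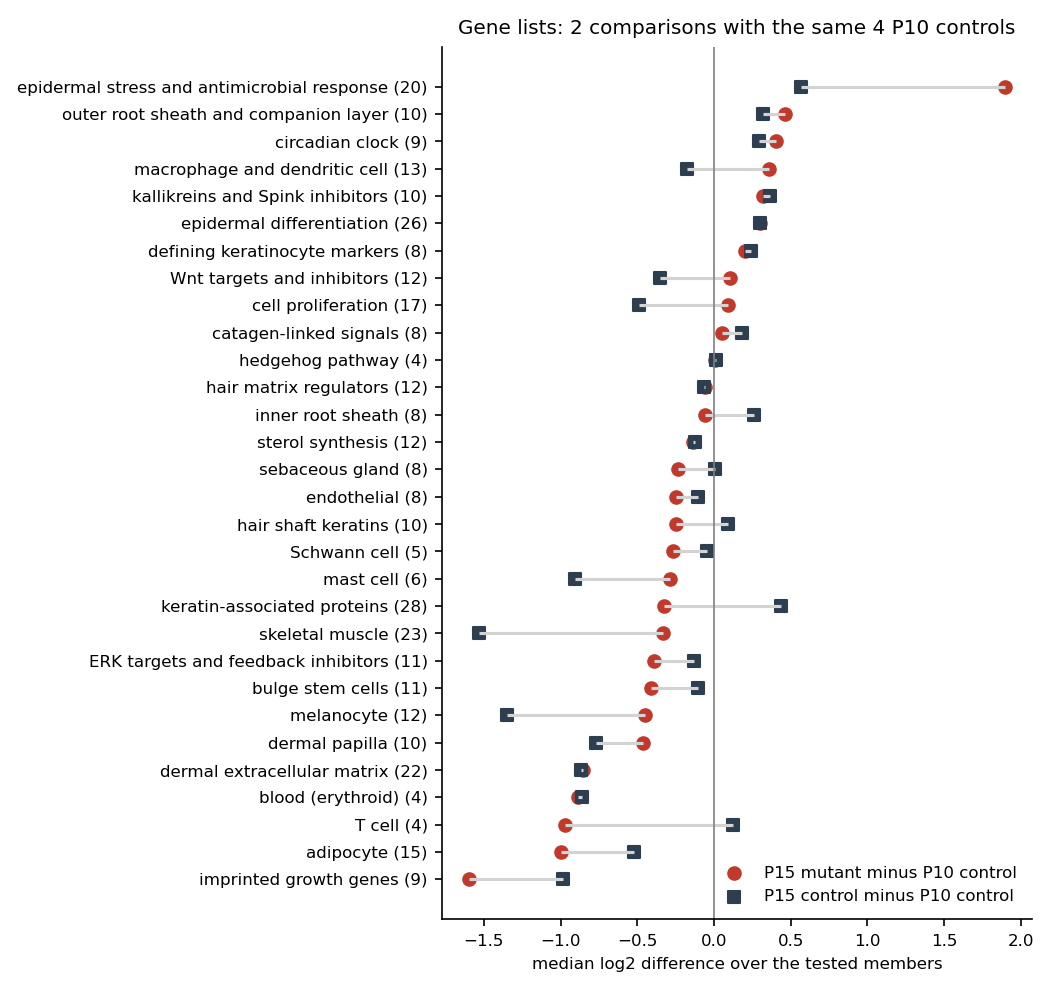
Median log2 difference from the same 4 P10 controls (x axis) over the tested members of 30 gene lists (number tested in brackets), with circles for P15 mutants and squares for P15 controls joined by a line. The stress list stands farthest right for P15 mutants at 1.90, and dermal matrix medians nearly coincide at -0.85 and -0.87, while proliferation, melanocyte, muscle and keratin-associated protein medians are apart.

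Most fat genes were lower in P15 mutants than in P10 controls, and some were also lower than in P15 controls. Of 15 adipocyte genes 11 passed against P10 controls, all lower (median -1.0), and 6 passed against P15 controls, all lower (median -0.45). In P15 controls 8 passed against P10 controls, all lower (median -0.52). The mean signal was 8.29 to 8.90 in P15 mutants, 8.85 to 9.41 in P15 controls and 9.55 to 9.85 in P10 controls, and 6 of the 15 lay below both controls. Agpat2, an enzyme of triglyceride synthesis, averaged 7.77 ± 0.34 in P15 mutants, 8.44 ± 0.16 in P15 controls and 9.05 ± 0.19 in P10 controls. Car3, a carbonic anhydrase abundant in fat and muscle, was 6.48-fold below P10 controls (adjusted p = 1.88e-06). Of 9 imprinted growth genes 6 fell (median -1.60), and in P15 controls 6 fell and 1 rose (median -0.98). Mest and Nnat are on both this list and the adipocyte list. Mest had signals from 4.62 to 6.79 (median 5.87) in P15 mutants and from 5.22 to 8.10 (median 7.16) in P15 controls, and 8.64, 8.43, 9.03 and 8.86 in P10 controls. It was detected on 2 of 6, 4 of 6 and 4 of 4 arrays. Both P15 groups overlapped each other and lay below all P10 controls (7.38-fold lower in P15 mutants, SE 0.31, adjusted p = 1.93e-07). Dlk1, an inhibitor of fat cell maturation, was 2.69 lower on the log2 scale (adjusted p = 8.33e-05). It was detected on 1 of 6 P15 mutants, array 1, and its call ended on slide 4 alone.

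Skeletal muscle genes differed between the slides. The mean signal of 23 such genes was 10.32, 9.56 and 8.46 on the 3 mutants of slide 4 and 5.97 to 7.00 on those of slide 3. It was 9.03 on P15 control 2, 5.98 to 6.86 on the other P15 controls, and 8.20 to 8.90 on the P10 controls. The median differences from P10 controls had opposite signs, -1.90 on slide 3 and 1.03 on slide 4. The myosin gene Myh8 had the largest fall of all genes tested (-3.73, and -3.28 without P15 mutant 5), a call that ended on slide 4 alone. With the mean muscle signal as a covariate, 2166 genes passed between P15 mutants and P10 controls, and the calls of Krt14, Mmp9 and Sc5d were the named calls that ended. The number at the P15 control level was then 476.

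Of 11 T cell genes on a list, 7 were not tested. Of the other 4, 3 fell against P10 controls (median -0.97), and these 3 did not pass between P15 and P10 controls. The remaining gene, Thy1, was at the P10 control level. It was lower in P15 than in P10 controls and higher in P15 mutants than in P15 controls. Cd3g, a chain of the T cell receptor complex, had signals from 5.04 to 6.69 (median 6.17) in P15 mutants and from 6.46 to 7.87 (median 7.41) in P15 controls, and 7.33, 7.40, 7.90 and 7.13 in P10 controls. It was 2.57-fold below P10 controls (SE 0.25, adjusted p = 0.000374), and Cd3e was 2.21-fold below them (adjusted p = 0.00175). Both were detected on 3 of 6 mutants, and both calls ended on either slide alone. Of 13 macrophage and dendritic cell genes 3 rose (median 0.36), namely Cd163 (1.10), Adgre1 (0.80) and C1qa (0.80), all of which also lay above P15 controls. This share is close to the 25% of all genes tested that passed. Slide 3 gave a list median of 0.59 and slide 4 of -0.02. The Adgre1 and C1qa calls ended without P10 control 4 and with only slides 3 and 4 in the fit, and that of C1qa ended under 14 of 25 alternatives, among them without P15 mutant 5 or 6 or P10 control 2. Of 6 mast cell genes Hdc rose (1.03, adjusted p = 0.000637), while the proteases Cma1 (-0.92) and Cpa3 (-1.23) fell as they did in P15 controls (-1.66 and -1.56).

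Of 8 endothelial genes 0 passed limma's test against P10 controls, and 3 had an unadjusted p below 0.05. Of 8 sebaceous gland genes 1 fell, the melanocortin receptor Mc5r (-1.49, adjusted p = 3.48e-05), which lay below both controls. Of 5 Schwann cell genes, 2 of which met the detection minimum only with mutant arrays, 1 rose and 1 fell (median -0.27). Of 8 keratinocyte markers 3 rose (median 0.20), namely Krt14, Krt5 and Trp63, whose calls ended under 17, 10 and 15 of 25 alternatives. Of 12 sterol synthesis genes 2 fell, Insig1 (-0.93) and Nsdhl (-0.96), and 1 rose, together the same share as the 25% of all genes tested that passed. Other probes gave -1.26 and 0.06 for Insig1, and -0.88, -0.87 and 0.00 for Nsdhl. The sebaceous gland and Schwann cell counts, which rest on few genes, are also to be read beside that 25%. Of 9 circadian clock genes 3 rose and 1 fell (median 0.41), with Arntl at the P15 control level (0.60), and the sources used here do not give the hour of tissue collection.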

How the data were processed

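Total RNA of dorsal skin was labelled as biotinylated cRNA and hybridised to Illumina BeadChips, per the labels' protocols. The deposited intensity values and detection p-values, 1 pair per array, are not normalised, per the file headers. Per the submitters' processing notes GenomeStudio was among the tools, with no version given. The authors also deposited a processed table, whose scale and floor are known only from its values. It was used as an alternative after a floor of 16 and log2. Intensities were corrected by normexp from the detection p-values, with offset 16, quantile normalised over 28 arrays and put on a log2 scale (neqc, limma 3.58.1, R 4.3.3). Of 25697 probes, 12834 were detected (p below 0.01) on at least 6 arrays. After 732 without a symbol were left out, the brightest probe per gene stood for 9045 genes. Symbols came from GEO's platform annotation, with 23978 probes having 1 gene and 1719 none, and 23962 matched RefSeq.

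A model of 4 groups and 4 slides over all 28 arrays (21 residual degrees of freedom) was fitted with lmFit and eBayes, with Benjamini-Hochberg adjusted p below 0.05. All adjusted p-values in the text come from this limma fit over all genes. On simulated data with 200 changed genes among 9045, set up as P15 mutants against P10 controls, 86% of 2-fold and 44% of 1.5-fold changes were recovered, with 3 false calls. The simulated noise was independent and of equal spread on all arrays, unlike these data, where P15 mutant 5 had an array weight of 0.12. The simulation therefore checks the fit and does not give its error rate here. Named were Gab1, the 12 largest rises and falls with all mutants beyond the P10 controls of their slide, the 6 leading genes of each class (6 in each direction beyond both controls), up to 4 members per list by p, and genes stated to be chosen after their values were seen. For 27 genes that passed, another probe passed in the opposite direction, and these were not named. The comparison, the class rules and the 31 gene lists were chosen with earlier results of these data known. The proliferation, sterol, imprinted, muscle, hedgehog, ERK and mast cell lists held members detected often enough only through mutants or P10 controls. Without either kind, the numbers passing against P10 controls in these lists were unchanged. Alternatives changed the normalisation, filter, probe choice, arrays, slide term, array weights, threshold and muscle content. The choice of age genes on 1 slide for reading on the other was made after seeing the data. Promoter sequences came from RefSeq (GRCm38.p6).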

Additional observations from a re-analysis of the deposited data

Results flagged for a closer look

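Among 251 groups of 4 or 6 arrays examined, 15 held 1 array that stood far from the rest of its group by Dixon's criterion, and chance flags about 1 in 20 groups. P15 mutant 5 was the array in 7 of them. Its distance to the P10 controls was 0.924, and the next mutant lay at 0.663. It was lowest of the mutants for Mcm5 (9.97, next 10.87), Mcm7 (5.31, next 6.08), Slc4a1 (9.91, next 10.43), Tcf7l1 (8.63, next 9.88) and Zbtb7a (5.78, next 7.39), and highest for Rrm2 (8.74, next 8.14). P15 mutant 1 was lowest for Lce1f (9.32, next 10.31) and Rptn (8.98, next 10.05), both genes of late epidermal differentiation. P15 mutant 6 had the highest mean signal of the sebaceous gland list, 8.83 against 8.49 to 8.60 in the other mutants. Among P10 controls, array 1 was highest for Hba-a1 (14.5) and Bub1b (6.62). P10 control 2 was highest for Arc (6.14) and lowest for Krt6b (10.7). P10 control 3 had the lowest mean signal of the Wnt list, 8.32 against 8.34 to 8.35, a gap that is small in itself.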

How the results depend on the processing

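The 6 counts of genes (P15 mutants against P10 controls, P15 against P10 controls, P15 mutants against P15 controls, at the P10 control level, at the P15 control level and beyond both controls) moved by over 1.5 times in several fits. With only slides 3 and 4 in the fit, they were 1481, 1297, 1109, 208, 424 and 352. With those slides and no slide term they were 1299, 1174, 1030, 180, 358 and 312. Slide 3 alone gave 788, 266, 256, 7, 56 and 115, and slide 4 alone 513, 676, 547, 76, 134 and 130. At an adjusted p below 0.01 they were 1189, 1022, 969, 173, 329 and 295. The 10 arrays compared gave 814 for the first count when fitted without the other groups. With slide as a random block the 6 counts, each within 1.5 times, were 2722, 2867, 1739, 497, 1083 and 665. Median scaling left 391 genes beyond both controls, and a muscle covariate left 476 at the P15 control level. Leaving out 1 array in turn gave 1569 (without P10 control 3) to 2537 (without P15 mutant 5), 1523 to 1908, 1477 to 1855, 278 to 476, 492 to 952 and 511 to 739. The authors' processed values gave 2195, 1946, 1738, 330, 621 and 644. Equal replicate numbers did not mark pairs, since residuals of arrays with numbers 1 to 4 correlated at -0.17, -0.32, 0.14 and 0.06. With the replicate number as a block the counts were 1062, 1127, 1702, 208, 333 and 366. Of 106 genes recomputed that passed against P10 controls, 41 held under every alternative run for them (up to 25) and 74 under all but the stricter threshold and the fits of 1 slide, and 0 reversed. Of 775 recomputed list medians, 60 moved by more than the spread between arrays. Median scaling turned the medians of the Wnt (-0.07), proliferation (-0.07), catagen-linked (-0.15) and hedgehog (-0.05) lists from above to below 0. Low signal limits genes detected on few arrays, for which a difference can be a bound.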
